A study of Mus musculus with 8 samples.

Results

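The genes described are mouse zinc finger genes whose symbol is Zfp followed by 3 digits. Of 325 such symbols among 55291 genes counted, 242 had raw counts that summed to 400 or more over 8 libraries, and these are the members. Members were thus chosen by their summed counts, and Zfp182 and Zfp783 were selected on their known values, so the levels of these 2 genes are given as a description with no test. The libraries were made from leukaemic granulocyte-macrophage progenitors (L-GMP), bone marrow cells sorted as lineage-negative, Sca-1-negative, c-Kit-positive, CD16/32-positive and CD34-positive from mice with acute myeloid leukaemia driven by the fusion oncogene MLL-AF9. KO libraries (n = 4) came from Dekfl/fl,MX1-Cre mice, in which the Mx1 promoter drives the Cre recombinase, and FL libraries (n = 4) came from Dekfl/fl mice. Both groups carried the floxed Dek alleles and the MLL-AF9 leukaemia, while the Cre transgene was present in KO alone, so its effect and that of losing the chromatin protein DEK cannot be told apart. Nothing in the labels ties the replicates of a group to separate animals, so each p-value reflects variation among the libraries sequenced, which may be technical in part or in whole.

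Zfp genes encode proteins built from C2H2 zinc fingers, short modules in which paired cysteines and histidines hold a zinc ion and which, set in a row, read a DNA sequence. Many also carry a KRAB box, which binds the corepressor TRIM28 and through it the histone H3K9 methyltransferase SETDB1, and such KRAB zinc finger proteins are best known for silencing retroelements and imprinted loci. The genes lie in clusters of near copies that differ between mouse strains and species, and members without a KRAB box include factors with roles in RNA, ribosomes and transcription.

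Library totals were 33941940 to 49736592 counts in KO and 44086524 to 58660705 in FL, and the groups differed in composition: 30606 to 37801 genes had at least 1 count in KO libraries, against 24125 to 26053 in FL libraries. TMM factors, which correct library sizes for composition, were 1.20 to 1.26 in KO and 0.68 to 0.91 in FL. Levels are given as CPM on the TMM scale, that is reads of a gene scaled to a common effective library size, and differences as log2 fold changes of KO over FL from edgeR's quasi-likelihood test, called at a Benjamini-Hochberg adjusted p below 0.05 over 17418 genes. Dek itself had 21.1, 21.3, 30.9 and 16.7 CPM in the KO libraries, against 129, 137, 163 and 178 CPM in the FL libraries (log2 fold change -2.75, adjusted p = 1.65e-05 in the edgeR fit). Summed CPM of 4 Y-linked genes was 1.93, 7.46, 15.7 and 2.54 in KO, against 0.111 to 0.350 in FL, while Xist was at 401 to 534 CPM in KO and 462 to 608 CPM in FL. Summed CPM of the 8 eosinophil markers was 246 to 1302 in KO, highest in replicates 2 and 3, and 21.4 to 114 in FL (6 of 7 tested called higher), and that of the 5 sort markers was 1008 to 1367 in KO and 1480 to 1859 in FL. Of the sort markers, Kit (log2 fold change 0.75) and Ly6a, which encodes Sca-1 (2.26, at 1.63 CPM in KO and 0.341 CPM in FL), were called higher in KO, and Cd34 (-0.62) and Fcgr3 (-0.83) lower. KO replicate 3 also had the highest summed neutrophil markers, 2430 CPM against 163 to 364 CPM in the other KO libraries and 92.5 to 710 CPM in FL, so counts of changed genes are also given without KO replicates 2 and 3. Summed monocyte and macrophage markers were at 1714 to 1971 CPM in KO and 2903 to 6176 CPM in FL. That sum was mostly Ly6c2, at a mean of 1500 CPM in KO and 3841 CPM in FL. Of the 6, 3 were called higher (Csf1r, Cx3cr1 and Mrc1) and 2 lower (Ly6c2 and Adgre1). Mast cell and basophil markers summed to 64.4 to 105 CPM in KO and 148 to 308 CPM in FL. Of 4 tested, 1 was called higher (Ms4a2) and 2 lower (Cpa3 and Gata2). Cpa3 averaged 5.02 CPM in KO and 132 CPM in FL. Summed T cell markers were at 0.630 to 1.93 CPM in KO and 0.620 to 0.999 CPM in FL. The part of these differences in the Zfp results was not tested.

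Zfp182 and Zfp783 stood apart from the other members: transcripts of both were plentiful in every KO library and close to absent in every FL library. Zfp182 is a protein-coding gene at chrX:21028939-21062316 on the minus strand (GRCm38), whose predicted protein has a KRAB box and 14 C2H2 fingers. It had 18.6, 18.8, 17.8 and 20.4 CPM in the KO libraries, against 0.0444, 0.423, 0 and 0.05 CPM in the FL libraries. The KO libraries lay within a narrow band, the FL libraries lay far below it without overlap, and FL replicate 2 was the highest of its group. In raw counts these were 1004, 864, 737 and 1258 in KO and 2, 17, 0 and 2 in FL, where the count of 0 allows up to 0.0743 CPM (3 counts in that library, counting error only). The fitted log2 fold change was 7.19 (SE 0.60), and 9.10 without FL replicate 2. In RNA pooled from many cells, a change in the number of cells that express a gene and a change in RNA per cell cannot be told apart.

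Zfp783, at chr6:47943171-47955913 on the plus strand, is annotated as a transcribed unprocessed pseudogene, a gene copy that is transcribed but not annotated as coding. It had 34.7, 26.6, 20.5 and 28.6 CPM in the KO libraries, against 0.399, 0.497, 0.173 and 0.5 CPM in the FL libraries. Every KO library was again far above every FL library, with the lowest level of each group in its replicate 3. The summed raw counts were 5711 in KO and 65 in FL, and the log2 fold change was 6.13 (SE 0.30). Per kilobase of exon, Zfp783 averaged 4.03 CPM in KO and 0.0573 CPM in FL, and Zfp182 averaged 3.30 CPM in KO and 0.0226 CPM in FL, whereas the median member was at 2.67 CPM per kilobase in KO and 2.35 in FL. In KO both thus lay above the median level of the family, and in FL both lay far below it. Zfp783 shares part of its span with Zfp956 on the same strand, which had 17.9 to 22.1 CPM in KO and 12.7 to 19.97 CPM in FL, and how reads over shared exons were assigned is not given in the sources used here.

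The promoter bases of Zfp783, of the largest tested rise with a matching transcription start (Zfp691) and of the largest fall (Zfp939) are shown because they differ in CG dinucleotides, the sites of DNA methylation in mammals. Each sequence is the 250 bases before the RefSeq transcription start on GRCm38.p6, 5′ to 3′ on the gene's own strand, with CG in capitals.
Zfp783, chr6:47942925-47943174, plus strand: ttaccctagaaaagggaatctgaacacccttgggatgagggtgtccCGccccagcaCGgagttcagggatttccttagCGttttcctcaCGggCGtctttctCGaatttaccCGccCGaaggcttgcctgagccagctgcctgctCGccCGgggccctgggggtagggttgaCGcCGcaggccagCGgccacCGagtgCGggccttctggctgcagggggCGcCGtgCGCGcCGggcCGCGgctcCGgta
Zfp691, chr4:119174196-119174445, minus strand: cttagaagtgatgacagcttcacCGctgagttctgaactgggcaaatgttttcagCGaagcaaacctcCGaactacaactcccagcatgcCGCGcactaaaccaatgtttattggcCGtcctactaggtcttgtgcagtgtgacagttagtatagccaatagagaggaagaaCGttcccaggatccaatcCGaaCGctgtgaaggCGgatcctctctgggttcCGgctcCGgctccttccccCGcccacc
Zfp939, chr7:39449268-39449517, plus strand: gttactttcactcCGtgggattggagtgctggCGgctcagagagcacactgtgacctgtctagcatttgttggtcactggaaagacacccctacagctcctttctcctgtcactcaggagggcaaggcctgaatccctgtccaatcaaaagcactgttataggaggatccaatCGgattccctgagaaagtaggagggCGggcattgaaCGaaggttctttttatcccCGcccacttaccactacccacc
The motif searched was CG, which reads the same on both strands. The Zfp783 promoter held 23 of them, the Zfp691 promoter 13 and the Zfp939 promoter 6. RefSeq promoters were matched for 203 of the 242 members, and their median was 12 CG, against 8 over all 20558 RefSeq promoters, of which 92.5% held at least 1. The promoters shown were picked because they differ, so their order says nothing of a link between CG and the direction of change. These are descriptions of the sequence, and no methylation was measured.

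Across the family, most members differed little between KO and FL, and more of those that did were higher in KO. All 242 members entered the fit: 28 were called higher in KO (11.6%) and 6 lower (2.48%), where 13.0% of all genes tested were called higher and 14.9% lower (27.9% in either direction). The members' share of higher calls was thus near that of all genes, and their share of lower calls was smaller. The median log2 fold change was 0.17 for members and 0.05 for all genes tested; 178 members had a positive value and 64 a negative one. In 199 members the log2 fold change lay within 0.5 of 0, and 11 members had an absolute value of 1 or more. All KO libraries were above all FL libraries in 38 members and below them in 9, with overlap in the other 195, where 15.0% of all genes tested had every KO library above and 15.9% every KO library below. The sum of 400 counts bears on this: 11 members would not have reached 400 at 2 times their lower group's sum. They are Zfp182, Zfp229, Zfp383, Zfp428, Zfp473, Zfp551, Zfp558, Zfp583, Zfp783 and Zfp786, with more counts in KO, and Zfp939, with more in FL. A gene that is a member only through its higher group had to differ in summed raw counts, so their values are given as descriptions with no test. The counts of calls include 8 of them, 7 higher and 1 lower; among the other 231 members, 21 were called higher (9.09%) and 5 lower (2.16%), with a median log2 fold change of 0.16. Just inside the limit were Zfp786, Zfp993 and Zfp551, with sums of 424, 453 and 467, and just outside it Zfp697, Zfp174 and Zfp287, with 395, 378 and 354. In the promoter windows, the median was 13 CG for 25 members higher in KO and 5.5 CG for 4 members lower in KO. The ranges were 2 to 23 and 2 to 6, and the median of 174 members not called was 12 CG. These sets include Zfp783 (23 CG), chosen on its values, and Zfp939 (6 CG), a member only through its FL counts. A link between CG and the direction of change was not tested.

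**Figure D1:**
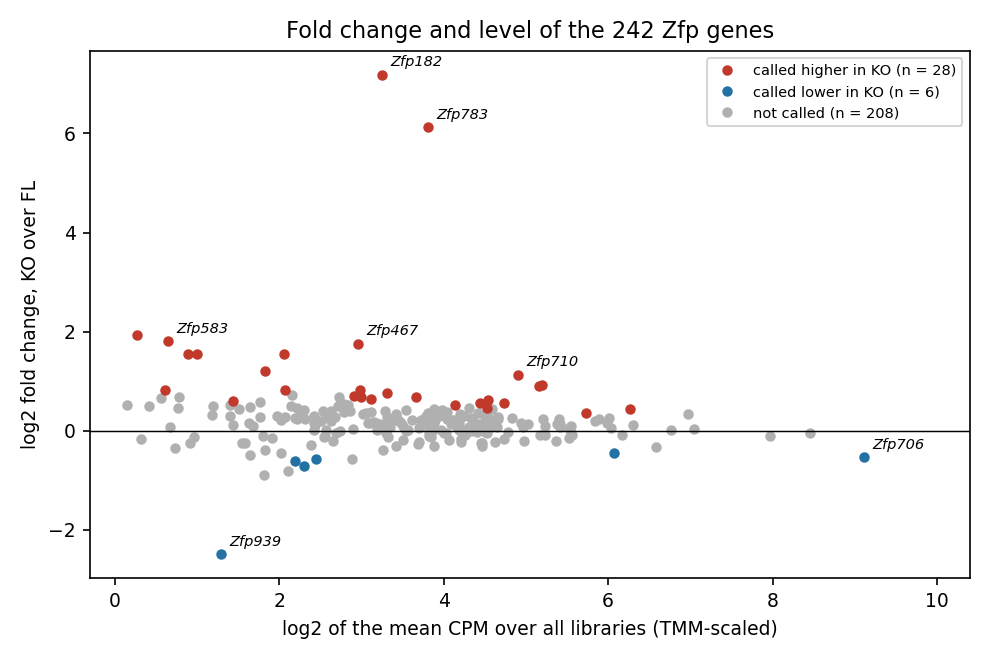
Fold change against level for the 242 members. The horizontal axis is the log2 of the mean CPM over all libraries on the TMM scale, the vertical axis the log2 fold change of KO over FL, and each point is 1 gene, red where called higher in KO (28), blue where called lower (6) and grey otherwise (208). Zfp182 (7.19) and Zfp783 (6.13) lie far above the band that holds most members.

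These counts depend on the scale used. With library totals in place of TMM factors, the median of all genes moved up by 0.59, 192 members were called higher and 1 lower (all genes: 51.7% higher, 5.09% lower), and the members' median was 0.78 against 0.64 for all genes. With a covariate for genes detected per library, a number that does not overlap between the groups, edgeR called 2 members higher, the pair chosen on its values, and 0 lower (22 and 1 at an unadjusted p under 0.05), against 0.614% and 0.563% of all genes. Without KO replicates 2 and 3, 14 members were called higher and 1 lower (all genes: 5.44% and 7.31%). As a share of all raw counts, the members together made up 0.686%, 0.685%, 0.634% and 0.714% of the KO libraries, against 0.492%, 0.470%, 0.399% and 0.377% of the FL libraries. On the TMM scale their summed CPM was 5694, 5461, 5203 and 5750 in KO and 5552, 5155, 5038 and 5518 in FL. The groups were apart on the first of these scales and overlapped on the second.

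After Zfp182 and Zfp783, the largest rises without overlap between the groups were Zfp551, Zfp583, Zfp467, Zfp442, Zfp473, Zfp691, Zfp710 and Zfp260, from 3.80-fold down to 1.90-fold. The KRAB genes among them, Zfp551, Zfp583, Zfp442 and Zfp473, averaged 0.298 to 2.13 CPM per kilobase of exon in KO. Those without a KRAB box averaged from 2.06 CPM per kilobase in KO for Zfp691 to 8.28 for Zfp260. Zfp467 is known for favouring the fat over the bone fate of mouse stromal cells, and Zfp260 for regulating heart genes.

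Zfp551 had 2.43, 2.59, 1.38 and 1.23 CPM in KO, against 0.776, 0.622, 0.446 and 0.150 CPM in FL (log2 fold change 1.93, SE 0.46). Zfp583, also on chromosome 7, had 2.19, 2.44, 2.39 and 2.69 CPM in KO and 0.665, 0.846, 0.719 and 0.55 CPM in FL (1.80, SE 0.25). Both are members only through their KO counts and are given without a test. The KO libraries of Zfp583 were close together, while those of Zfp551 fell into a higher pair, replicates 1 and 2, and a lower pair. Zfp467 had 12.1, 12.9, 7.20 and 15.4 CPM in KO, against 4.5, 4.25, 1.98 and 3.42 CPM in FL (1.75, SE 0.29, adjusted p = 0.0016 in the edgeR fit). Replicate 3 was the lowest library of both groups for Zfp467, and the groups still did not overlap. Zfp442 had 6.10, 6.09, 5.0 and 7.69 CPM in KO and 4.17, 1.87, 0.595 and 1.85 CPM in FL (1.55, SE 0.44, adjusted p = 0.023 in the edgeR fit). Its FL libraries spread widely, and the call was lost without KO replicate 2, KO replicate 4 or FL replicate 2, with adjusted p of 0.051, 0.052 and 0.050.

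Zfp473, whose human counterpart ZNF473 takes part in the processing of replication-dependent histone mRNA, had 2.08, 3.76, 4.52 and 1.59 CPM in KO, against 1.31, 0.920, 0.669 and 1.17 CPM in FL (log2 fold change 1.55, SE 0.37, with no test, since its membership rests on the KO counts). Replicates 2 and 3 were the high KO libraries, and without this pair the log2 fold change was 0.85. A covariate for genes detected per library turned it to -0.21. Zfp473 overlaps Vrk3 on the opposite strand, a gene with 28625 raw counts over all libraries and a log2 fold change of 0.18, and the strand setting of the counting is not given in the sources used here. Zfp691 had 4.49, 5.48, 4.28 and 5.49 CPM in KO and 2.13, 2.19, 2.11 and 2.15 CPM in FL (1.21, SE 0.19, adjusted p = 0.0012 in the edgeR fit). Its 4 FL libraries were nearly equal and all KO libraries lay well above them.

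Zfp710 had 41.2, 36.7, 37.2 and 48.8 CPM in KO, against 18.8, 24.3, 17 and 14.9 CPM in FL (log2 fold change 1.13, SE 0.16, adjusted p = 0.00072 in the edgeR fit). Zfp260 had 45.1, 53.8, 38.4 and 54.4 CPM in KO and 30.7, 25.3, 17.9 and 27.2 CPM in FL (0.93, SE 0.17, adjusted p = 0.0031 in the edgeR fit). Neither gene overlapped between the groups, and replicate 3 was the lowest library of both groups for Zfp260. A transcript of unsettled type, Gm44951, shares the strand and part of the span of Zfp710, with 2334 raw counts and a log2 fold change of 0.32. The other 18 members called higher had log2 fold changes of 0.35 (Zfp687) to 1.54 (Zfp229, given as a description). Examples, chosen after their values were seen, are the KRAB genes Zfp950 (0.90), Zfp758 (0.69) and Zfp426 (0.56), and Zfp105 (0.77), a gene known for its part in mouse sperm formation. Of the 26 called members whose membership did not rest on 1 group, 11 kept their call whichever 1 library was left out, 9 of them higher in KO and 2, Zfp706 and Zfp971, lower.

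**Figure D2:**
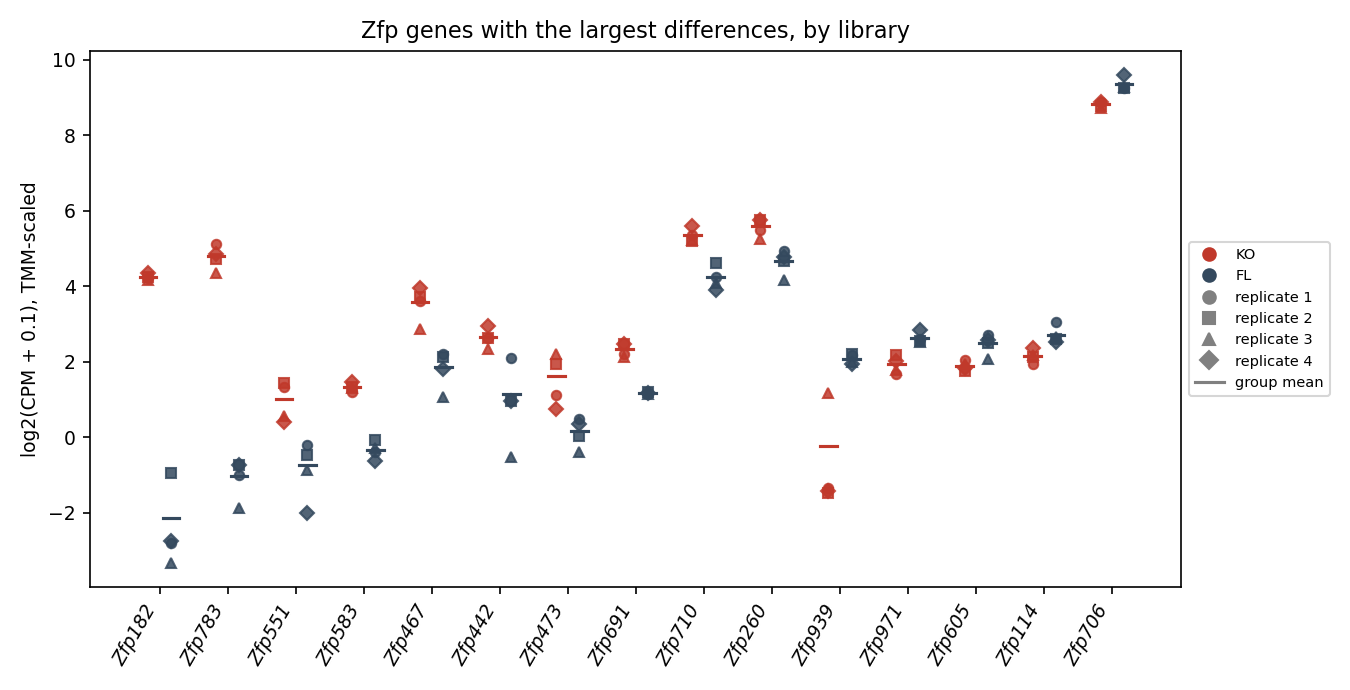
Levels of the 10 largest rises and the 5 falls without overlap, by library. The vertical axis is log2 of CPM plus 0.1 on the TMM scale. For each gene the KO libraries (red) stand left of the FL libraries (dark blue), symbols mark the replicate number and bars the group mean. Zfp182 and Zfp783 show the widest gap, and KO replicate 3 of Zfp939 lies above the other KO libraries.

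The members lower in KO numbered 6, among them a transcribed pseudogene that was near 0 in 3 of the KO libraries and Zfp706, the most abundant member per kilobase. Zfp939, at chr7:39449518-39477413 on the plus strand, is annotated as a transcribed unprocessed pseudogene. It had 0.297, 0.261, 2.18 and 0.275 CPM in the KO libraries, against 4.41, 4.53, 3.87 and 3.72 CPM in the FL libraries. KO replicate 3 was the highest of its group, between the other KO libraries and all FL libraries. The fitted log2 fold change was -2.49 (SE 0.63), and -3.88 without KO replicate 3, with no test, since its membership rests on the FL counts. That library also had the highest Dek level and the highest summed Y-linked and neutrophil markers of the KO group, and their part in this value was not tested.

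Zfp706 encodes a small protein with 1 C2H2 finger, known for a part in the exit of mouse embryonic stem cells from self-renewal. It had 475, 438, 421 and 471 CPM in KO, against 616, 606, 626 and 774 CPM in FL (log2 fold change -0.54, SE 0.12, adjusted p = 0.0064 in the edgeR fit). The groups did not overlap, and FL replicate 4 stood above the other FL libraries. With library totals in place of TMM factors the log2 fold change of Zfp706 was 0.07 (adjusted p = 0.63), and without KO replicates 2 and 3 it was -0.47 (adjusted p = 0.11).

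The remaining falls without overlap were the KRAB genes Zfp971, Zfp605 and Zfp114. Zfp971 averaged 3.72 ± 0.62 CPM in KO and 6.12 ± 0.66 CPM in FL (SD, n = 4 each), a log2 fold change of -0.72. Zfp605 averaged 3.63 ± 0.33 CPM in KO and 5.53 ± 1.02 CPM in FL (-0.61), and Zfp114 4.38 ± 0.54 CPM in KO and 6.50 ± 1.13 CPM in FL (-0.57). Their adjusted p by edgeR's quasi-likelihood test were 0.017 for Zfp971, 0.042 for Zfp605 and 0.046 for Zfp114. Leaving out any of 7 libraries for Zfp605, or any of 6 for Zfp114, ended the call, with adjusted p up to 0.12 in both. With library totals in place of TMM factors, Zfp971 (-0.11), Zfp605 (-0.02) and Zfp114 (0.01) were not called. The sixth fall, Zfp120, was named after its values were seen: KO libraries had 45.1 to 67.4 CPM and FL libraries 64.8 to 93.7 CPM, so the groups overlapped (log2 fold change -0.46, and 0.12 with library totals).

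By level per kilobase of exon, the highest members were Zfp706, Zfp422, Zfp207, Zfp263, Zfp869 and Zfp830. Zfp706 averaged 90.6 CPM per kilobase in KO and 132 in FL. Zfp422 averaged 66.4 CPM per kilobase in KO and 71.6 in FL, and Zfp207, which helps load the checkpoint protein BUB3 on chromosomes, 51.5 in KO and 53.6 in FL. The next 3 in that order, Zfp263, Zfp869 and Zfp830, lay between 26.0 and 30.4 CPM per kilobase in either group, where their order differed between KO and FL. Apart from Zfp706, none of these abundant members passed the test, and their log2 fold changes ran from -0.15 (Zfp869) to 0.08 (Zfp830). Over all members the level per kilobase ran from 0.214 to 90.6 CPM in KO and from 0.0226 to 132 CPM in FL.

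The predicted proteins show what the members share beyond their names. Reading frames of GENCODE M21 gave a KRAB box in 142 members and none in 97, and 3 members, Zfp125, Zfp783 and Zfp939, are annotated as pseudogenes. KRAB members had 2 to 33 C2H2 fingers with a median of 11, and members without the box 0 to 36 with a median of 7. Of the KRAB members, 17 were called higher in KO and 4 lower, and their median log2 fold change was 0.20. Of those without the box, 10 were called higher and 1 lower, with a median of 0.15. These are 11.97% higher and 2.82% lower of KRAB members, and 10.3% and 1.03% of members without the box, beside 13.0% and 14.9% of all genes tested. The KRAB calls include members that rest on their KO counts alone and so had to differ in raw counts, among them Zfp182, Zfp473, Zfp551 and Zfp583. The difference between these classes was not tested, and both medians stand beside 0.05 for all genes. The median level of KRAB members was 2.22 CPM per kilobase in KO and 1.97 in FL, below that of members without the box, 3.55 in KO and 3.06 in FL.

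**Figure D3:**
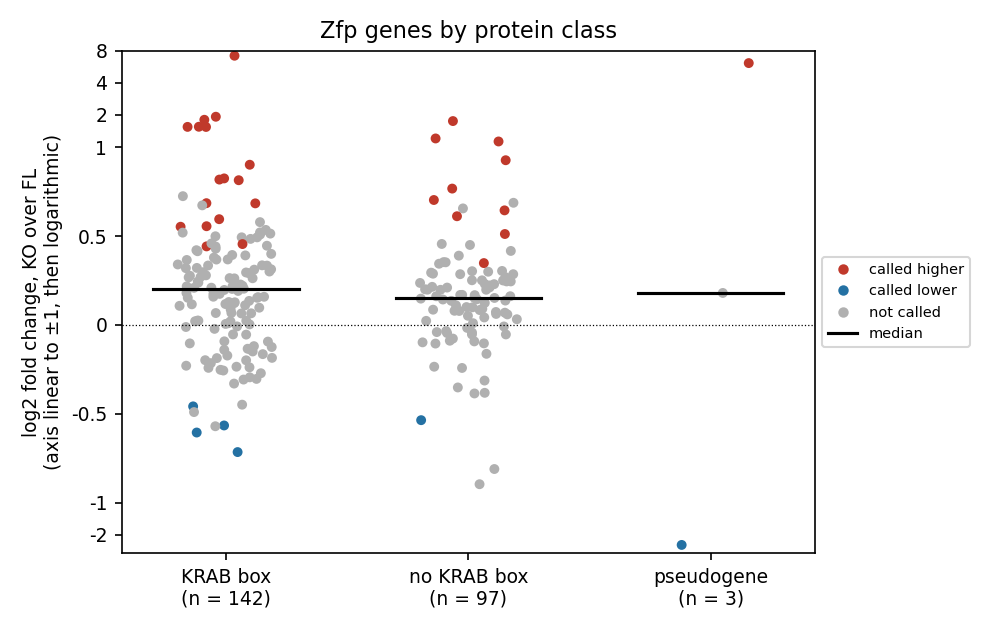
Log2 fold change of KO over FL by protein class. Each point is 1 member, red where called higher in KO, blue where called lower and grey otherwise, and the black bar is the class median. The vertical axis is linear between -1 and 1 and logarithmic beyond. The medians of KRAB genes (0.20) and of genes without the box (0.15) lie close together. The points include members that rest on the counts of 1 group, such as Zfp182, and so had to differ in raw counts.

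Members listed under RNA handling and ribosomes did not pass edgeR's test in either direction with TMM factors. They were Zfp598, the ligase that senses collided ribosomes; Zfp622 and Zfp593, which act in maturation of the large ribosomal subunit; Zfp326, Zfp830 and Zfp207, linked to splicing; Zfp346, which binds double-stranded RNA; and Zfp106, Zfp638 and Zfp451. Of these 10, edgeR called 0 (2 at an unadjusted p under 0.05), DESeq2 0 and limma-voom 1, Zfp106. Over all genes tested, edgeR called 13.0% higher and 14.9% lower. With library totals in place of TMM factors, 9 of the 10 were called higher (90%), beside 51.7% of all genes. With TMM factors the median log2 fold change of the 10 was 0.22. The largest were Zfp106 (0.34), Zfp346 (0.30) and Zfp326 (0.30), with adjusted p of 0.10, 0.10 and 0.18 in the edgeR fit. Zfp346 had 15.9, 14.7, 15.2 and 15.0 CPM in KO, against 13.1, 12.9, 10.7 and 12.6 CPM in FL. Its groups did not overlap although it missed the threshold. Zfp622 spread more, with 93.9, 69.4, 67.5 and 49.7 CPM in KO and 59.3, 41.0, 70.4 and 65.5 CPM in FL.

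Among 6 members known to silence retroelements or imprinted genes, 1 (16.7%), Zfp809, was called higher in KO, beside 13.0% of all genes tested. The protein recruits TRIM28 to the primer binding site of murine leukaemia viruses and silences their proviruses. Zfp809 had 24.1, 27.0, 24.9 and 30.0 CPM in KO, against 21.8, 22.4, 16.0 and 17.3 CPM in FL (log2 fold change 0.45, SE 0.15, adjusted p = 0.037 in the edgeR fit). The groups did not overlap, but the gap between them was small, and leaving out any of 6 libraries ended the call (adjusted p up to 0.099). Zfp932, which acts on endogenous retroviruses, averaged 20.98 ± 1.38 CPM in KO and 21.3 ± 1.88 CPM in FL (SD, n = 4 each). Zfp445, a guardian of imprints, averaged 66.9 ± 9.94 CPM in KO and 60.1 ± 5.94 CPM in FL. Zfp568, which represses a placental Igf2 transcript, averaged 20.4 ± 2.71 CPM in KO and 16.2 ± 1.92 CPM in FL. Zfp961 (log2 fold change -0.05) and Zfp808 (0.22) did not pass either, and the median of the 6 was 0.19.

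Of 8 genes listed for blood and leukaemia, 6 were members, and edgeR called Zfp467 higher among them. That is 1 of 6 (16.7%), beside 13.0% of all genes tested. Zfp318, needed for IgD on mouse B cells, had 2.56, 2.57, 3.87 and 3.45 CPM in KO, against 5.15, 5.50, 2.55 and 8.67 CPM in FL (log2 fold change -0.81, SE 0.33, adjusted p = 0.090 in the edgeR fit). FL replicate 3 was as low as the lowest KO libraries, and without it the value was -1.06 (adjusted p = 0.017); without FL replicate 4, the highest library, it was -0.51 (adjusted p = 0.22). DESeq2 and limma-voom called Zfp318 lower with all libraries. Zfp384, the counterpart of a fusion partner gene in human B cell leukaemia, averaged 9.32 ± 1.28 CPM in KO and 7.32 ± 0.52 CPM in FL (SD, n = 4 each). Zfp335, a regulator of T cell maturation, averaged 18.0 ± 2.73 CPM in KO and 16.0 ± 3.78 CPM in FL. Neither Zfp384 (0.35) nor Zfp335 (0.17) passed the test, nor did Zfp608 (0.25) or Zfp217 (0.25), the counterpart of a human breast cancer oncogene. Zfp521, a cofactor of early blood progenitors, fell short of 400 counts and had 0.0647 to 0.387 CPM in KO and 0 to 0.0497 CPM in FL. Zfp341 also fell short, at 0.718 to 1.34 CPM in KO and 0.525 to 1.34 CPM in FL.

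Of 10 members listed as chromatin and general regulators, edgeR called 1 (10%), Zfp266, higher in KO. Over all genes tested, 13.0% were called higher and 14.9% lower, and the median log2 fold change of the list was 0.06. Zfp266, known as a barrier to the reprogramming of mouse cells, had 102, 87.0, 71.7 and 93.4 CPM in KO, against 75.4, 67.2, 58.4 and 60.2 CPM in FL (0.44, SE 0.13, adjusted p = 0.029 in the edgeR fit). KO replicate 3 overlapped the FL libraries, and the call was lost without any 1 of 6 libraries (adjusted p up to 0.094). Zfp143, a factor of housekeeping and small nuclear RNA promoters, had the lowest value of the list, -0.24, with 22.5 ± 3.10 CPM in KO and 26.6 ± 3.04 CPM in FL (SD, n = 4 each). Zfp410, known as an activator of Chd4, averaged 66.6 ± 4.37 CPM in KO and 64.4 ± 5.63 CPM in FL. Zfp281, a regulator of pluripotent cells, averaged 24.7 ± 0.99 CPM in KO and 21.5 ± 2.15 CPM in FL. The others, Zfp148, Zfp609, Zfp644, Zfp512 and Zfp292, had log2 fold changes of -0.09 to 0.25.

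The genes through which KRAB proteins act were called in both directions, at shares near those of all genes. Of 23 corepressor genes in the table, 22 were tested: Setdb1 and Atf7ip, which encode the H3K9 methyltransferase and its partner, were called higher in KO, and 4 were called lower, among them Trim28, Uhrf1 and Sumo2, with a median of 0.04 over the 22. These are 9.09% higher and 18.2% lower, beside 13.0% and 14.9% of all genes tested. Setdb1 had 47.5, 51.4, 43.5 and 45.7 CPM in KO, against 35.0, 33.2, 26.5 and 31.0 CPM in FL (log2 fold change 0.58, SE 0.12, adjusted p = 0.0041 in the edgeR fit). Trim28 had 110, 90.6, 89.6 and 82.8 CPM in KO, against 116, 120, 156 and 485 CPM in FL (-1.23, SE 0.41, adjusted p = 0.043 in the edgeR fit). The groups did not overlap, yet FL replicate 4 set most of the size of the Trim28 value, which was -0.51 without it (adjusted p = 0.027). The Trim28 call was lost when any 1 KO library or FL replicate 3 was left out (adjusted p of 0.051 to 0.098). With library totals in place of TMM factors, 16 of the 22 were called higher (72.7%) and 1, Sumo2, lower (4.55%). Over all genes these shares were 51.7% and 5.09%, and the median was 0.63 for the 22 beside 0.64 for all genes. Trim28 (-0.54) and Uhrf1 (-0.21) were not called on that scale, with adjusted p of 0.14 and 0.31 in the edgeR fit.

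Most members lay near another member on the chromosome. On GENCODE M21, 146 members were within 250 kb of another, 16 of them called higher and 4 lower, and 96 lay alone, 12 of them higher and 2 lower. Their median log2 fold changes were 0.20 and 0.15. These counts, and those by cluster and chromosome, stand beside 13.0% of all genes called higher and 14.9% lower, and no place was tested against another. All of these counts include called members that rest on the counts of 1 group and so had to differ in raw counts. Among them are Zfp229, Zfp583 and Zfp783 in clusters, Zfp558 on chromosome 9 and Zfp939, a lower call, on chromosome 7. The counts by place are therefore descriptions. There were 18 clusters of 3 or more members, holding 112 members, of which 11 were called higher and 1 lower. No cluster held more than 2 called higher: 2 of 13 on chromosome 17 (Zfp229 and Zfp758) and 2 of 4 on chromosome 9 (Zfp426 and Zfp266). Chromosome 7 held 67 members, 7 higher and 2 lower, and chromosome 9 held 15, 6 of them higher. Chromosome 8 held 16 with a median of -0.05, of which edgeR called 0 (2 at an unadjusted p under 0.05), DESeq2 0 and limma-voom 1, Zfp319. The X chromosome held 3 members, among them Zfp182, described above, and Zfp275, called higher (log2 fold change 0.70).

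The members next to Zfp783 had small fold changes that did not pass the test. Zfp398, Zfp282, Zfp212, Zfp956 and Zfp777, within 100 kb on chromosome 6, had log2 fold changes of 0.23 to 0.29, with adjusted p of 0.13 (Zfp212) to 0.41 (Zfp777) in the edgeR fit. Around Zfp182, Elk1 stood at 0.09 and Uxt at 0.05, neither called, while Cfp, which encodes the complement protein properdin, was lower in KO (-1.05, SE 0.23, adjusted p = 0.0071 in the edgeR fit). Cfp had 165, 205, 266 and 351 CPM in KO, against 407, 654, 554 and 428 CPM in FL. With library totals the value was -0.47 (adjusted p = 0.10 in the edgeR fit). Zfp300, the zinc finger gene next to Zfp182, summed to 32 raw counts and was not tested. Next to Zfp939, Zfp619 stood at 0.48 (not called) and the noncoding Gm37494 was called higher at 0.71.

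**Figure D4:**
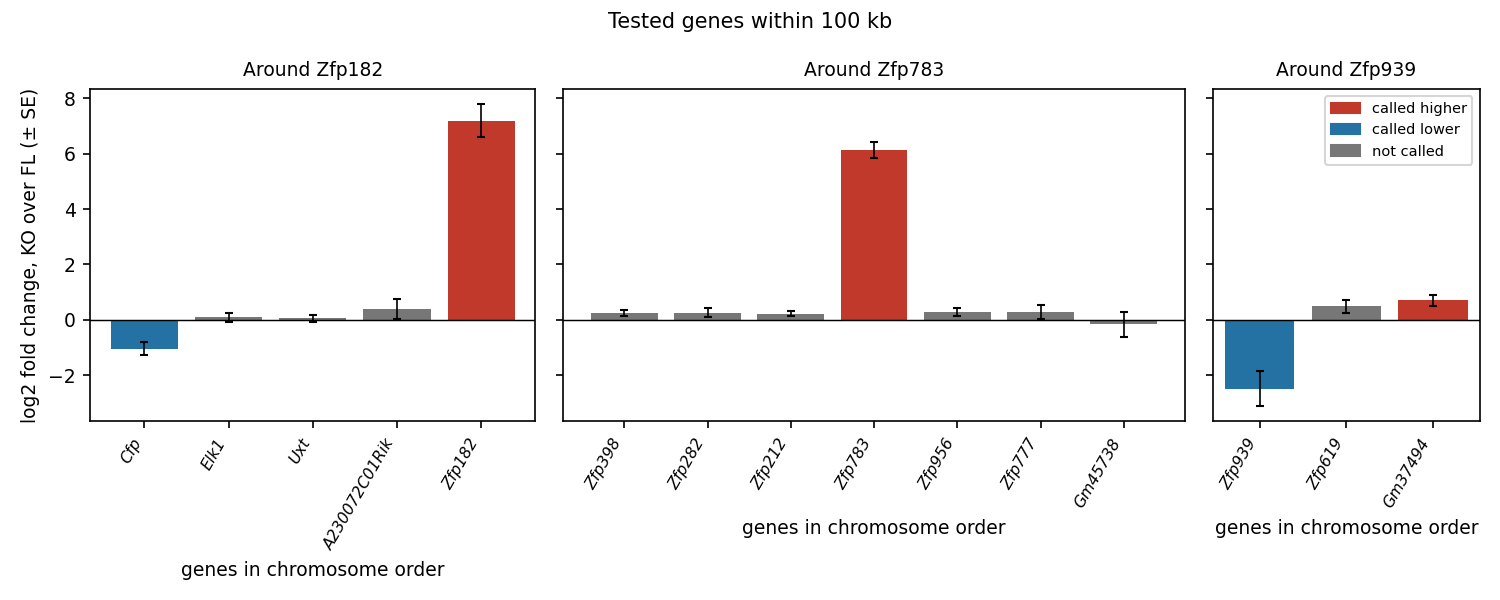
Log2 fold change of KO over FL (bars, with the standard error) for tested genes within 100 kb of Zfp182, Zfp783 and Zfp939, in chromosome order. Red bars are genes called higher in KO, blue bars lower and grey bars not called. Zfp182 (7.19) and Zfp783 (6.13) stand above neighbours that lie between -1.05 and 0.39.

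Other zinc finger genes with 400 counts or more were set beside the members. Of 64 Zfp symbols of another form, 7 were called higher and 1 lower (median 0.09). Of 36 Zbtb genes, which pair zinc fingers with a BTB domain, 5 were called higher and 4 lower (median 0.12), and of 16 Zscan and Zkscan genes, which carry a SCAN domain, 3 were called higher (median 0.20). The shares were 10.9% higher and 1.56% lower for the Zfp symbols of another form, 13.9% and 11.1% for Zbtb genes and 18.75% higher for Zscan and Zkscan genes, beside 13.0% and 14.9% of all genes tested. No difference between these families and the members was tested.

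Between libraries of a group, the median coefficient of variation of a member's CPM was 14.3% in KO and 17.1% in FL. The 90th percentile over members was 25.9% in KO and 39.1% in FL. KO replicate 4 was the highest KO library in 105 members and KO replicate 3 the lowest in 95. In FL, replicate 1 was the highest in 90 members and replicate 3 the lowest in 107.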

How the data were processed

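RNA was measured in 8 libraries. Per the labels' protocols, miRNeasy-extracted RNA was amplified as cDNA by Geo-seq and tagmented into libraries. No molecular identifiers are mentioned, so amplified copies of 1 molecule are counted separately and counting limits cover counting error only. The authors deposited 1 table of raw counts per gene symbol. Per the submitters' processing notes, the tools were HTSeq 0.13.5, Bowtie 0.12.9 and DESeq2 on build mm10; the sheet that holds the table carries the name featureCounts instead. Annotation, strandedness and handling of multi-mapped reads: not given in the sources used here. Reads shared by near-identical Zfp copies or by overlapping genes may therefore be split or dropped; 4 of the 34 called members overlap a gene with 400 or more counts.

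Columns named WT were read as FL, since no other control group exists and the replicate numbers match. KO was compared with FL in edgeR 4.0.16 (R 4.3.3): TMM factors, filterByExpr, quasi-likelihood F test, and Benjamini-Hochberg adjustment over 17418 genes. The standard error was obtained as the log2 fold change over the root of its F statistic. The steps were tested on simulated data in which 200 genes were changed. They recovered 53.7% of the 2-fold and 75% of the 4-fold changes, and 5.38% of the calls were false. A gene that was not called may therefore still differ. No library was a copy of another (lowest chi-square per degree of freedom within a group 21.2). The members and lists were chosen with earlier results of these data known. Named by rule were Zfp182 and Zfp783, up to 10 rises and 10 falls without overlap, the 6 highest per kilobase, the role lists and the members next to the count limit.

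Positions and exon lengths came from GENCODE M21 (GRCm38), matched for 242 members. No protein table was used: reading frames of its transcripts were translated, fingers counted by pattern, and KRAB boxes found with a profile built from 167 windows of 42 residues (E-value limit 1e-05), a step chosen after the reference was seen. Promoter sequences are RefSeq's. Values of 1 corepressor gene are not reported here. Alternatives were DESeq2 1.42.0, upper-quartile and RLE factors, voom of limma 3.58.1 with sample weights, library totals, no and stricter count filters, libraries left out, a covariate for genes detected, the replicate number as a block, and count limits of 200 and 1000.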

Additional observations from a re-analysis of the deposited data

Results flagged for a closer look

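In 106 groups of 4 libraries, each a named gene in KO or in FL, 9 held 1 library whose gap to its nearest neighbour exceeded the 95% critical value of Dixon's ratio; chance gives about 1 in 20 groups. KO replicate 3 was apart for Zfp939, at 2.18 CPM against 0.261 to 0.297 CPM in the other KO libraries, and for Zfp106, at 113 CPM against 146 to 153 CPM. KO replicate 4 was low for Zfp335, at 13.9 CPM against 19.2 to 19.6 CPM. FL replicate 2 was high for Zfp182, at 0.423 CPM against 0 to 0.05 CPM in the other FL libraries. FL replicate 3 was low for Zfp263, at 111 CPM against 136 to 137 CPM, and for Zfp326, at 13.4 CPM against 17.9 to 18.7 CPM. FL replicate 4 was high for Zfp706, at 774 CPM against 606 to 626 CPM, for Zfp644, at 30.2 CPM against 22.0 to 23.2 CPM, and for the corepressor gene Trim28, at 485 CPM against 116 to 156 CPM. The direction of each gene's fold change without the library is covered by leaving out libraries in turn.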

How the results depend on the processing

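DESeq2 (29 members higher, 8 lower), RLE factors (29 and 6) and no count filter (23 and 6) gave counts near the 28 higher and 6 lower. So did a summed count of 200 (32 and 6) or 1000 (23 and 5). The called genes were not all the same: without a count filter 8 of the 34 calls were lost. Of the 34, 12 kept their call in every refit other than library totals and the covariate. Among those are Zfp182, Zfp229, Zfp583, Zfp783 and Zfp939, which rest on the counts of 1 group. Over all genes, limma-voom called 15.4% higher and 17.2% lower, and DESeq2 8.37% and 5.83% of 46035 genes with any count. Lower calls numbered 10 with limma-voom (35 higher), 3 with upper-quartile factors (32 higher) and 3 with the stricter filter of 1 CPM in 4 libraries (34 higher). With library totals 192 were higher, 1 lower and the median 0.78, and with genes detected as a covariate 2 were higher, 0 lower and the median 0.31. Without KO replicates 2 and 3 together, 14 were higher and 1 lower. Leaving out each library in turn gave 18 (without KO replicate 2) to 31 (without FL replicate 4) higher, 3 to 6 lower and medians of 0.12 to 0.20; the 3 lower calls came without FL replicate 1 and without KO replicates 1, 2 or 3. Same-numbered libraries deviated together little (correlations 0.0192 to 0.0474), so the numbers were not taken as pairs; the fit with the replicate block gave 24 higher and 4 lower. Of named genes called in at least 1 of the settings compared, signs turned with library totals for Zfp114 (0.013), Zfp120 (0.12) and Zfp706 (0.068). They also turned for Zfp148 (0.52), Zfp207 (0.53), Zfp422 (0.49), Zfp512 (0.49), Zfp598 (0.50), Zfp869 (0.44), Zfp932 (0.55) and Zfp961 (0.53). Library totals moved the median of all genes up by 0.59, and a negative value raised by about that amount ends below it. The sign of Zfp473 turned with the covariate (-0.21), and the cause of that turn was not tested. For 12 named genes called in neither setting, signs turned 24 times over all alternatives, 6 of them with the covariate and 2 with library totals.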

Other observations

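Some members that were not called had 1 FL library far from the other 3; they were chosen after their values were seen. FL replicate 2 was low for Zfp444, at 8.58 CPM against 25.1 to 28.0 CPM in the other FL libraries, and for Zfp771, at 5.65 CPM against 15.6 to 17.1 CPM. It was also low for Zfp787, at 10.3 CPM against 21.6 to 22.4 CPM, and for Zfp553, at 14.2 CPM against 27.2 to 29.0 CPM. In KO these 4 genes, all on chromosome 7, were lowest in replicate 4, at 15.1, 5.81, 16.0 and 15.3 CPM. FL replicate 4 was high for Zfp821, at 11.8 CPM against 2.15 to 3.27 CPM, and for Zfp513, at 15.1 CPM against 4.53 to 4.98 CPM.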
